A study of Mus musculus with 24 samples.

Results

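The genes described here are 7 genes used to identify fibroblasts and pericytes, the supporting cells of the lung interstitium, followed in cultures of type 2 alveolar epithelial cells (AEC2s). They are Pdgfra, Pdgfrb, Tcf21, Dcn, Lum, Mgp, and Cthrc1, taken by name from the 55421 Ensembl mouse genes of the count table. Earlier results of these data were known when they were chosen. All 7 were among the 18046 genes tested. AEC2s were isolated from Krt8+/+ (WT) and Krt8–/– (KO) mice, and RNA was sequenced from freshly isolated cells (D0) and from cells on days 1, 3, and 7 (D1, D3, and D7) of 2D culture on a stiff substrate coated with laminin. Isolations were made on 3 dates as independent biological replicates, with 1 library per genotype and day at each date, which gave 24 libraries in 8 groups of 3. Krt8–/– mice lack keratin 8, an epithelial intermediate filament protein, in every cell and not in AECs alone. The labels name no agent for either genotype, and the age of the mice, the number of mice per isolation, and the purity of the isolated cells are unstated in the sources read here.

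The number of reads counted per library was 10184439 to 19483386, so that 3 reads correspond to at most 0.332 CPM in any library. CPM are the counts of a gene relative to the total of its library, scaled with edgeR's TMM factors, given for isolations 1, 2, and 3 in that order. Krt8 ranged from 485 to 5092 CPM over the 12 Krt8+/+ libraries and from 21.2 to 47.4 CPM over the 12 Krt8–/– libraries, so the libraries carried the genotype of their labels. The 8 AEC2 genes checked, among them Sftpc, summed to 229208 to 302885 CPM at D0 in Krt8+/+ libraries and to 187 to 253 CPM at D7. Cdh1, the epithelial cadherin, was at 1093 ± 87.1 CPM (SD, n = 3) at D0 and 766 ± 145 CPM at D7 in Krt8+/+ AECs.

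Fibroblasts make the collagen and proteoglycan matrix of the lung, and pericytes wrap the capillaries. Platelet-derived growth factors (PDGFs) act on both through PDGF receptor α, which marks fibroblasts, and PDGF receptor β, which marks pericytes, smooth muscle cells, and many fibroblasts. When such cells are carried along in an epithelial isolation they can proliferate in culture, and none of the 7 genes marks 1 cell type alone. Bulk RNA cannot tell a change in the number of cells that express a gene from a change in the RNA per cell, and this holds for every value given here.

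The 7 genes did not move together over the culture. Between D0 and D7, Pdgfrb and Cthrc1 rose, Dcn and Lum fell, and Pdgfra, Tcf21, and Mgp did not pass the test, in Krt8+/+ and in Krt8–/– AECs alike. The 2 genes that rose in Krt8+/+ AECs stand beside 28.6% of all tested genes that were higher at D7, and the 2 that fell beside 30.2% that were lower. In Krt8–/– AECs, the corresponding shares were 28.6% and 29.9%. The members' shares are thus close to those of all genes, and the counts alone say nothing particular about these genes. Their median log2 change was 0.56 in Krt8+/+ and 0.93 in Krt8–/– AECs, beside 0.00 for all tested genes in each. The 7 genes summed to 309 ± 139 CPM at D0, 155 ± 42.0 at D1, 275 ± 49.2 at D3, and 277 ± 113 at D7 in Krt8+/+ AECs. Without isolation 1, Pdgfra (log2 change 3.22, adjusted p = 0.011 from edgeR) and Mgp (2.20, adjusted p = 0.038) passed as well in Krt8+/+ AECs. Most of the D0 sum was Dcn, and without it the sum went from 98.5 CPM at D0 to 259 CPM at D7.

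**Figure D1:**
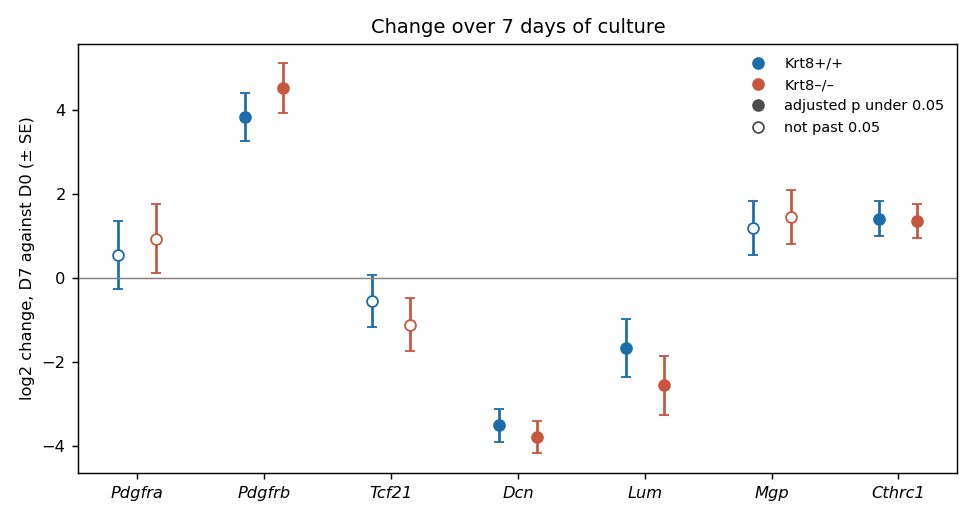
Log2 change from D0 to D7 of the 7 genes (y axis, point ± SE) in Krt8+/+ (blue) and Krt8–/– AECs (red), from edgeR on 24 libraries. Filled points passed an adjusted p of 0.05: Pdgfrb and Cthrc1 lie above 0, Dcn and Lum below 0, and the open points of Pdgfra, Tcf21, and Mgp did not pass.

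Pdgfrb (ENSMUSG00000024620), the receptor for PDGF-BB and PDGF-DD, was low at the start and rose between D1 and D3. In Krt8+/+ AECs, it was at 5.85, 4.55, and 1.66 CPM at D0, at 5.65, 3.18, and 4.01 CPM at D1, at 57.2, 44.0, and 41.4 CPM at D3, and at 27.7, 48.0, and 102 CPM at D7. The Krt8–/– libraries had 5.25, 4.05, and 3.17 CPM at D0, 5.02, 4.47, and 3.11 CPM at D1, 36.5, 33.0, and 23.0 CPM at D3, and 53.2, 36.9, and 197 CPM at D7. Every library of D3 and D7 was above every library of D0 and D1 in both genotypes. In Krt8+/+ AECs, the ratio of D7 to D0 was 4.74, 10.6, and 61.3 in isolations 1, 2, and 3, the last from 15 reads at D0. The log2 change from D1 to D3 was 3.47 (SE 0.56, adjusted p = 1.6e-04 from edgeR) in Krt8+/+ and 2.87 (SE 0.56, adjusted p = 8.7e-04) in Krt8–/– AECs. From D0 to D7 it was 3.84 (SE 0.58, adjusted p = 8.9e-06), a 14.3-fold rise, and 4.52 (SE 0.59, adjusted p = 1.5e-06), a 23.0-fold rise.

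The isolations diverged for Pdgfrb at D7. Isolation 1 fell from 57.2 CPM at D3 to 27.7 CPM at D7 in Krt8+/+ AECs, whereas isolation 3 went from 41.4 to 102 CPM. In Krt8–/– AECs, the log2 change from D3 to D7 was 1.64 (SE 0.51, adjusted p = 0.042 from edgeR). This call was lost without isolation 1 (2.07, adjusted p = 0.081), isolation 2 (2.06, adjusted p = 0.11), isolation 3 (0.38, adjusted p = 0.61), or the D7 library of isolation 3 alone (0.55, adjusted p = 0.54). It was also lost with isolation as a block (1.53, adjusted p = 0.059) and in the fit of only the groups compared (1.60, adjusted p = 0.12). The D0 to D7 rise in Krt8–/– AECs passed the test under every alternative run, with log2 changes of 3.27 to 5.03.

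Pdgfra (ENSMUSG00000029231, GRCm38 chromosome 5, 75152292 to 75198215, plus strand), the receptor that marks alveolar and matrix fibroblasts, varied widely between isolations at D0. Tcf21 and Mgp varied between isolations at D0 as well, and Pdgfra varied most. Its levels in Krt8+/+ AECs were 51.9, 4.77, and 2.44 CPM at D0, 85.9, 59.3, and 45.2 CPM at D1, 76.3, 40.3, and 34.1 CPM at D3, and 21.8, 26.5, and 40.8 CPM at D7. For Krt8–/– AECs, the values were 28.6, 17.8, and 1.55 CPM at D0, 50.2, 63.9, and 25.4 CPM at D1, 43.1, 43.0, and 23.2 CPM at D3, and 25.4, 15.2, and 50.9 CPM at D7. All 3 isolations of both genotypes were higher at D1 than at D0, but the 2 groups overlapped in each genotype because isolation 1 was already high at D0.

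The rise of Pdgfra from D0 to D1 did not pass the test in the fit without a block, with a log2 change of 1.65 (SE 0.82, adjusted p = 0.096 from edgeR) in Krt8+/+ and 1.54 (SE 0.83, adjusted p = 0.13) in Krt8–/– AECs. With isolation as a block it passed in Krt8+/+ AECs, at 1.99 (adjusted p = 0.034), and not in Krt8–/– AECs, at 1.75 (adjusted p = 0.062). Without isolation 1 the log2 changes were 3.85 (adjusted p = 0.0049) and 2.23 (adjusted p = 0.0499). From D1 onward the mean went down, from 63.5 ± 20.7 CPM at D1 to 29.7 ± 9.89 CPM at D7 in Krt8+/+ AECs, and neither later step passed the test. The exons of Pdgfra share 456 bases with those of an antisense gene, Gm42802, and whether counting used strand is not given in the sources used here, so reads of the pair cannot be told apart over these bases.

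The 7 genes of the PDGF list are the 4 ligands and 3 receptor genes, and 2 of them are Pdgfra and Pdgfrb. Between D0 and D7, 5 of the 7 rose and none fell in each genotype, beside 28.6% of all tested genes that were higher in each and 30.2% and 29.9% that were lower. Pdgfa, the ligand of the α receptor, rose from 45.8 ± 4.51 to 117 ± 5.06 CPM in Krt8+/+ AECs (log2 change 1.36, SE 0.15, adjusted p = 1.2e-07 from edgeR). Pdgfb rose from 13.9 ± 2.72 to 114 ± 52.2 CPM (3.04, SE 0.40, adjusted p = 1.7e-06). Pdgfc, at 0.603 ± 0.251 CPM at D0, was at 27.3 ± 4.97 CPM at D7, and Pdgfd went from 2.20 ± 1.94 to 15.9 ± 6.04 CPM, and both passed the test. Pdgfrl, which encodes a receptor-like protein, did not pass, nor did Pdgfra.

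**Figure D2:**
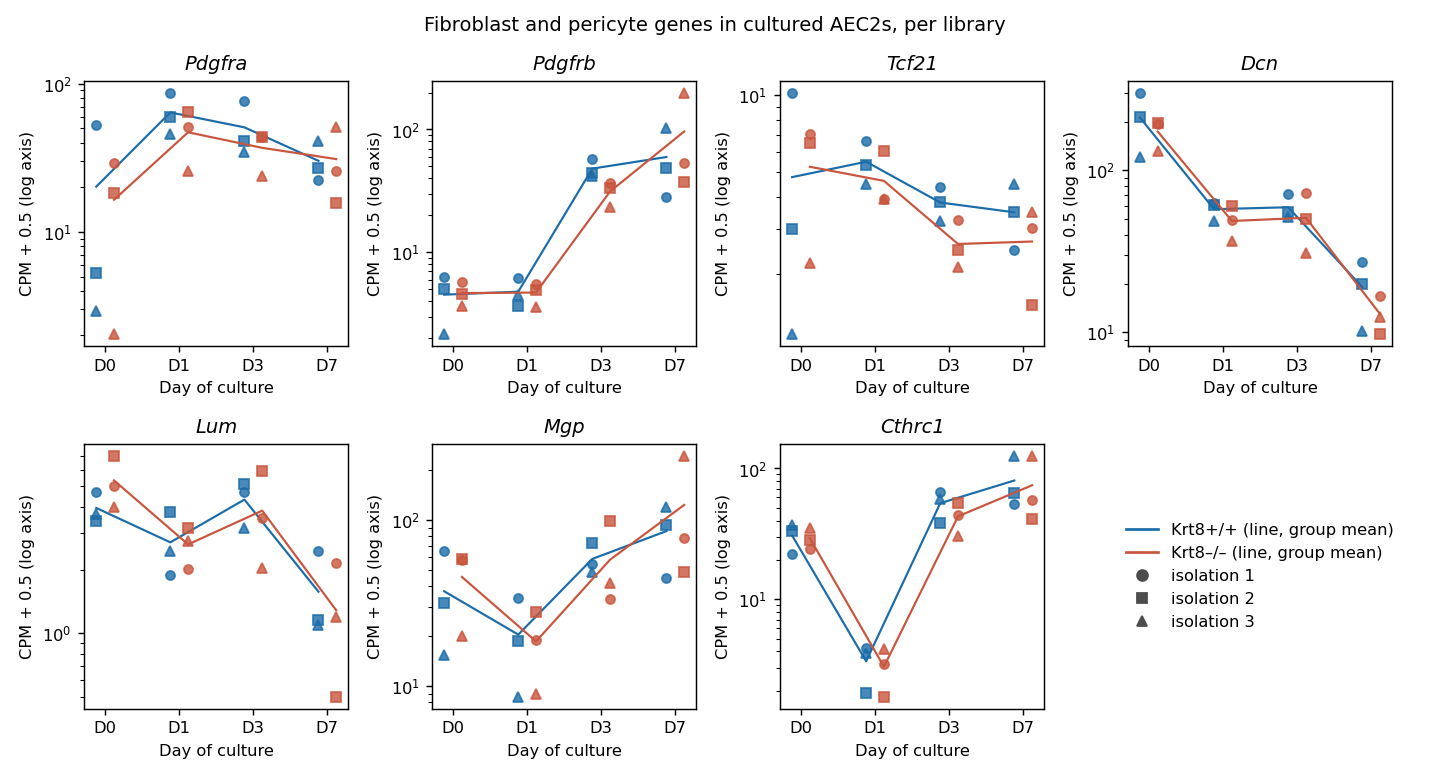
CPM plus 0.5 of each gene (y axis, log scale) by day of culture (x axis) in Krt8+/+ (blue) and Krt8–/– AECs (red), with a symbol for each isolation and a line through the group means. Dcn is lower and Pdgfrb higher in each library of D7 than in any of D0, Cthrc1 is lowest at D1, and Pdgfra spreads from 1.55 to 51.9 CPM at D0.

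Tcf21 (ENSMUSG00000045680, GRCm38 chromosome 10, 22817281 to 22820174, minus strand), a transcription factor of lung mesenchyme and of lipid-bearing alveolar fibroblasts, was the regulator among the 7. It was low, and it passed the test in no comparison. In Krt8+/+ AECs, it was at 9.66, 2.49, and 0.664 CPM at D0, at 6.10, 4.85, and 4.01 CPM at D1, at 3.87, 3.31, and 2.72 CPM at D3, and at 1.97, 2.99, and 3.98 CPM at D7. The Krt8–/– libraries had 6.55, 5.97, and 1.70 CPM at D0, 3.41, 5.51, and 3.43 CPM at D1, 2.74, 1.99, and 1.62 CPM at D3, and 2.52, 1.01, and 3.00 CPM at D7. The order of the isolations was the reverse at D7 of that at D0 in Krt8+/+ AECs, and the groups overlapped. The log2 change from D0 to D7 was −0.55 (SE 0.62, adjusted p = 0.46 from edgeR) in Krt8+/+ AECs, and leaving out isolation 1 turned it to 1.14. In Krt8–/– AECs it was −1.11 (SE 0.62, adjusted p = 0.14), and without isolation 3 it was −1.80 (adjusted p = 0.022).

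Of 8 other mesenchymal regulators, 5 rose from D0 to D7 in each genotype, namely Twist1, Twist2, Prrx1, Foxf1, and Osr1. Heyl, a Notch target of mural cells, fell, and Tbx5 and Gli1 did not pass the test. Beside these stand 28.6% of all tested genes higher in each genotype and 30.2% lower in Krt8+/+ and 29.9% lower in Krt8–/– AECs. Prrx1, a homeobox factor of fibroblasts, went from 0.499 ± 0.425 CPM at D0 to 10.7 ± 4.12 at D1 and 41.2 ± 26.9 at D7 in Krt8+/+ AECs (D0 to D7, log2 change 6.18, SE 0.72, adjusted p = 3.2e-07 from edgeR). Twist1, a factor of mesenchymal transition, went from 0.368 ± 0.131 to 5.86 ± 4.08 CPM (3.93, SE 0.58, adjusted p = 6.8e-06). Foxf1, which marks lung mesenchyme and capillary endothelium, went from 2.10 ± 2.06 to 14.5 ± 1.64 CPM, and Osr1 from 9.97 ± 6.80 to 32.4 ± 15.4 CPM, and both passed.

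Dcn (ENSMUSG00000019929, GRCm38 chromosome 10, 97479609 to 97518143, plus strand) encodes decorin, a small leucine-rich proteoglycan that binds collagen and is abundant in fibroblasts. It fell in steps. Its levels in Krt8+/+ AECs were 299, 213, and 121 CPM at D0, 62.1, 61.0, and 48.1 CPM at D1, 70.5, 54.6, and 50.9 CPM at D3, and 26.6, 19.3, and 9.68 CPM at D7. For Krt8–/– AECs, the values were 194, 195, and 130.3 CPM at D0, 48.9, 59.5, and 36.3 CPM at D1, 71.8, 49.3, and 30.2 CPM at D3, and 16.2, 9.27, and 12 CPM at D7. The D0 libraries lay above all others and the D7 libraries below all others in both genotypes, while D1 and D3 overlapped. The log2 change from D0 to D1 was −1.89 (SE 0.36, adjusted p = 1.6e-04 from edgeR) in Krt8+/+ and −1.84 (SE 0.36, adjusted p = 2.3e-04) in Krt8–/– AECs. From D3 to D7 it was −1.66 (SE 0.36, adjusted p = 0.0062) and −2.01 (SE 0.37, adjusted p = 9.7e-04), and both calls were lost without isolation 2, when the changes were −1.76 (adjusted p = 0.14) and −1.86 (adjusted p = 0.067). From D0 to D7 Dcn fell by 3.51 on the log2 scale (SE 0.38, adjusted p = 1.4e-07) in Krt8+/+ and by 3.79 (SE 0.39, adjusted p = 6.2e-08) in Krt8–/– AECs.

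Lum (ENSMUSG00000036446, GRCm38 chromosome 10, 97565128 to 97572703, plus strand) encodes lumican, a related proteoglycan that binds fibrillar collagen, and lies downstream of Dcn on the same strand. It was counted with 0 to 90 reads per library. In Krt8+/+ AECs, it was at 4.20, 2.92, and 3.21 CPM at D0, at 1.40, 3.26, and 1.97 CPM at D1, at 4.20, 4.60, and 2.67 CPM at D3, and at 1.97, 0.663, and 0.597 CPM at D7. The Krt8–/– libraries had 4.53, 6.48, and 3.48 CPM at D0, 1.52, 2.66, and 2.26 CPM at D1, 3.02, 5.42, and 1.55 CPM at D3, and 1.66, 0, and 0.702 CPM at D7. The D7 libraries lay below the D0 libraries in both genotypes. The log2 change from D0 to D7 was −1.67 (SE 0.69, adjusted p = 0.043 from edgeR) in Krt8+/+ and −2.56 (SE 0.70, adjusted p = 0.0037) in Krt8–/– AECs. In Krt8+/+ AECs the call was lost without isolation 2 (adjusted p = 0.080) or isolation 3 (adjusted p = 0.20), whereas in Krt8–/– AECs it held under every alternative run.

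The small leucine-rich proteoglycans, a list of 12 genes that includes Dcn and Lum, had 9 tested genes, of which 6 fell and 1 rose from D0 to D7 in each genotype, beside 30.2% and 29.9% of all tested genes that were lower and 28.6% that were higher. Bgn, which encodes biglycan, the closest relative of decorin, was the gene that rose, from 22.6 ± 18.8 CPM at D0 to 538 ± 297 CPM at D7 in Krt8+/+ AECs (log2 change 4.55, SE 0.70, adjusted p = 1.3e-05 from edgeR). Prelp went from 44.7 ± 41.4 to 3.63 ± 2.10 CPM (−3.61, SE 1.00, adjusted p = 0.0038) and Fmod, which encodes fibromodulin, from 10.3 ± 5.38 to 3.10 ± 2.87 CPM (−1.72, SE 0.70, adjusted p = 0.040). Ogn, which encodes osteoglycin, was at 28.9 ± 24.8 CPM at D0 and 13.5 ± 10.3 CPM at D7, a log2 difference of −1.11 that did not pass (adjusted p = 0.31). The median log2 change of the 9 genes was −1.72 in Krt8+/+ and −2.56 in Krt8–/– AECs.

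Mgp (ENSMUSG00000030218, GRCm38 chromosome 6, 136872435 to 136875823, minus strand) encodes matrix Gla protein, a secreted inhibitor of calcification made by fibroblasts, pericytes, and vascular smooth muscle. Its levels in Krt8+/+ AECs were 64.2, 31.3, and 14.8 CPM at D0, 33.5, 18.2, and 8.15 CPM at D1, 53.6, 71.9, and 48.2 CPM at D3, and 44.3, 92.4, and 119 CPM at D7. For Krt8–/– AECs, the values were 57.1, 58.1, and 19.6 CPM at D0, 18.6, 27.3, and 8.49 CPM at D1, 33.0, 97.8, and 41.1 CPM at D3, and 77.2, 48.1, and 243 CPM at D7. All isolations were lower at D1 than at D0 and higher at D3 than at D1, and the D1 and D3 groups did not overlap in either genotype.

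No change of Mgp passed the test in the fit as designed, and calls depended on the settings. The log2 change from D1 to D3 was 1.54 (SE 0.66, adjusted p = 0.089 from edgeR) in Krt8+/+ and 1.66 (SE 0.66, adjusted p = 0.074) in Krt8–/– AECs, and both passed in the fit of the 2 groups compared alone (adjusted p = 0.034 and 0.044) and without the filter on low counts (adjusted p = 0.032 and 0.024). Between D0 and D7 it was 1.2 (SE 0.64, adjusted p = 0.12) and 1.45 (SE 0.65, adjusted p = 0.060). In Krt8–/– AECs the latter passed with isolation as a block, at 1.66 (adjusted p = 0.040), and without the filter, at 1.47 (adjusted p = 0.020), and was 0.12 (adjusted p = 0.86) with isolation 3 left out.

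Cthrc1 (ENSMUSG00000054196, GRCm38 chromosome 15, 39076932 to 39087121, plus strand) encodes a secreted protein that marks activated, matrix-producing fibroblasts in fibrotic lung. It dipped at D1 and then rose above its starting level. In Krt8+/+ AECs, it was at 21.5, 32.6, and 36.6 CPM at D0, at 3.75, 1.42, and 3.39 CPM at D1, at 65.3, 37.9, and 58.1 CPM at D3, and at 53.1, 63.9, and 124 CPM at D7. The Krt8–/– libraries had 23.7, 28.0, and 34.6 CPM at D0, 2.69, 1.3, and 3.66 CPM at D1, 43.9, 53.7, and 30.1 CPM at D3, and 56.7, 40.5, and 125 CPM at D7. The D1 libraries lay below all others, with 17 to 51 reads each, and the D7 libraries lay above those of D0.

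The fall of Cthrc1 from D0 to D1 was −3.38 on the log2 scale (SE 0.47, adjusted p = 5.7e-06 from edgeR) in Krt8+/+ and −3.51 (SE 0.48, adjusted p = 4.8e-06) in Krt8–/– AECs. From D1 to D3 it rose by 4.22 (SE 0.48, adjusted p = 4.1e-06) and 4.08 (SE 0.49, adjusted p = 7.5e-06), which was 18.6-fold and 16.9-fold. From D0 to D7 the log2 change was 1.42 (SE 0.41, adjusted p = 0.0057) and 1.36 (SE 0.41, adjusted p = 0.0074). In Krt8–/– AECs the latter was lost without isolation 1, at 1.40 (adjusted p = 0.051), without isolation 3, at 0.91 (adjusted p = 0.062), and without the D7 library of isolation 3 alone, when it was 0.76 (adjusted p = 0.11).

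Of the 9 tested genes of the activated fibroblast list, 7 rose and 1 fell from D0 to D7 in each genotype. Tnc, which encodes tenascin C, went from 1.94 ± 1.46 CPM at D0 to 205 ± 137 at D1 and 473 ± 116 at D7 in Krt8+/+ AECs, and Grem1, a BMP antagonist, had no count at D0 and was at 163 ± 43.6 CPM at D7. Of 14 collagen and matrix genes, 10 rose in each genotype, and 4 fell in Krt8+/+ and 3 in Krt8–/– AECs. Of all tested genes, 28.6% were higher in each genotype and 30.2% and 29.9% lower. Col1a1 went from 53.9 ± 41.1 CPM at D0 to 19.4 ± 10.3 at D1, 525 ± 164 at D3, and 522 ± 208 at D7, and Col1a2 from 66.2 ± 47.7 to 18.0 ± 8.47, 499.5 ± 134, and 557 ± 263 CPM. Like Cthrc1, both collagen genes fell from D0 to D1 (log2 change −1.48, adjusted p = 0.027, and −1.89, adjusted p = 0.0097, from edgeR) and rose from D1 to D3 (4.76, adjusted p = 1.4e-05, and 4.79, adjusted p = 2.4e-05). Fn1, which encodes fibronectin and is also made by epithelium in culture, went from 37.0 ± 40.4 CPM at D0 to 5227 ± 1638 CPM at D7. These lists are not specific to fibroblasts, and which cells made the transcripts was not measured.

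By step of the culture, the members' calls were few and in the same direction in both genotypes, with 1 exception at D7. From D0 to D1, none of the 7 rose and 2 fell, Dcn and Cthrc1, in each genotype, beside 26.2% of all tested genes that were higher and 28.5% lower in Krt8+/+ AECs and 23.7% and 26.9% in Krt8–/– AECs. From D1 to D3, 2 rose, Pdgfrb and Cthrc1, and none fell, beside 14.4% and 11.9% in Krt8+/+ and 13.4% and 10.2% in Krt8–/– AECs. From D3 to D7, Dcn fell and none rose in Krt8+/+ AECs, beside 3.47% lower and 3.11% higher of all genes. Dcn fell and Pdgfrb rose in Krt8–/– AECs over the same step, beside 6.15% lower and 4.4% higher. At an unadjusted p of 0.05, edgeR gave 2, 3, 2, and 4 of the 7 genes over these 3 steps and from D0 to D7 in Krt8+/+ AECs and 2, 3, 3, and 5 in Krt8–/– AECs. Of all 18046 tested genes, it gave 10716, 6870, 3468, and 11348 in Krt8+/+ and 10186, 6534, 4170, and 11242 in Krt8–/– AECs.

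Keratin 8 was absent in one genotype, and the levels of the 7 genes were compared between genotypes on each day. None of the 7 passed the test at D0, D1, D3, or D7 or for the change from D0 to D7, with all adjusted p values at 1.00 from edgeR and none at an unadjusted p of 0.05. Of all tested genes, 0.0277% were called at D0, 0.0166% at D1, 0.0166% at D3, 0.0166% at D7, and 0.00554% for the change from D0 to D7, which is 5, 3, 3, 3, and 1 genes. At an unadjusted p of 0.05, edgeR gave 479, 638, 452, 255, and 369 of all 18046 tested genes. DESeq2 called none of the 7 either. The differences nearest to the threshold were at D7, where the Dcn level was 12.5 ± 3.48 CPM without and 18.5 ± 8.50 CPM with keratin 8 (log2 difference −0.56, SE 0.36) and that of Pdgfrb 95.9 ± 88.3 and 59.2 ± 38.3 CPM (0.70, SE 0.49). The Pdgfrb difference turned to −0.39 without the isolation 3 library of Krt8–/– D7. At D3, Pdgfrb was lower in each Krt8–/– library than in any Krt8+/+ library, at 30.8 ± 6.97 and 47.5 ± 8.48 CPM, a log2 difference of −0.62 (SE 0.50) that did not pass. The share of all tested genes without such overlap was not counted, so the separation alone says nothing particular about Pdgfrb. The SEs of the differences on single days were 0.34 to 0.82 on the log2 scale. The Dcn and Pdgfrb differences given above were larger than their SEs and did not pass, so differences of such size could be missed. In isolation 1, the sum of Y-linked genes was at most 0.441 CPM in the libraries of Krt8+/+ mice and 173 to 191 CPM in those of Krt8–/– mice, so genotype and sex cannot be told apart in that isolation, whereas both genotypes matched in isolations 2 and 3.

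Per kilobase of merged exons, which allows levels to be compared between genes, the order of the 7 genes changed over the culture. In Krt8+/+ AECs at D0, Dcn had the highest level at 36.1 ± 15.3 CPM per kb, followed by Mgp at 31.0 ± 21.2 and Cthrc1 at 19 ± 4.93, and the first 3 overlapped in their ranges from neighbour to neighbour. Pdgfra, Tcf21, Lum, and Pdgfrb followed at 1.96 ± 2.78, 1.82 ± 2.03, 1.41 ± 0.273, and 0.734 ± 0.391 CPM per kb. At D7, Mgp was highest at 71.9 ± 32.0 CPM per kb, followed by Cthrc1 at 50.5 ± 24.1 and Pdgfrb at 10.8 ± 7.00, and Dcn was at 3.18 ± 1.46. Pdgfrb thus went from the last to the third place while Dcn went from the first to the fourth, with Mgp overlapping Cthrc1 and Dcn overlapping Pdgfra.

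The isolations left a pattern of their own in these genes. At D7, isolation 3 was the highest of the 3 for Pdgfra, Pdgfrb, Tcf21, Mgp, and Cthrc1 in both genotypes. Before D7, isolation 3 was the lowest in 6 of 6 groups for Pdgfra and Dcn, and in 5 of 6 for Pdgfrb, Tcf21, and Mgp. For Pdgfrb, isolation 1 was the highest in those 6 groups. The sum of Y-linked genes at D7 was 0, 0.166, and 208 CPM in Krt8+/+ AECs, and 173, 0, and 199 CPM in Krt8–/– AECs. Sex and isolation 3 thus cannot be told apart in Krt8+/+ AECs. In the isolation 3 libraries of D7, the summed level of 8 general epithelial genes was the lowest of the 3 isolations in each genotype, at 4093 CPM against up to 6386 in Krt8+/+ AECs and at 2625 CPM against up to 5135 in Krt8–/– AECs. The list's mean at D7 was 5366 CPM with and 2087 CPM without Krt18 in Krt8+/+ AECs, and 4111 and 2051 CPM in Krt8–/– AECs. Whether isolation 3 was also the lowest without Krt18 was not tested. At D0, the list summed to 3751 to 4031 CPM in Krt8+/+ and to 3860 to 4038 CPM in Krt8–/– libraries. Isolation 3 was not the lowest for AEC1 genes in either genotype, nor for AEC2 genes in Krt8+/+ AECs. At D7, 8 AEC1 genes summed to 1685, 2093, and 3062 CPM in Krt8+/+ and to 1784, 2371, and 2109 CPM in Krt8–/– AECs. The 8 AEC2 genes summed to 187, 194, and 253 CPM and to 171, 196, and 157 CPM. The part of these sums in the levels of the 7 genes was not tested.

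**Figure D3:**
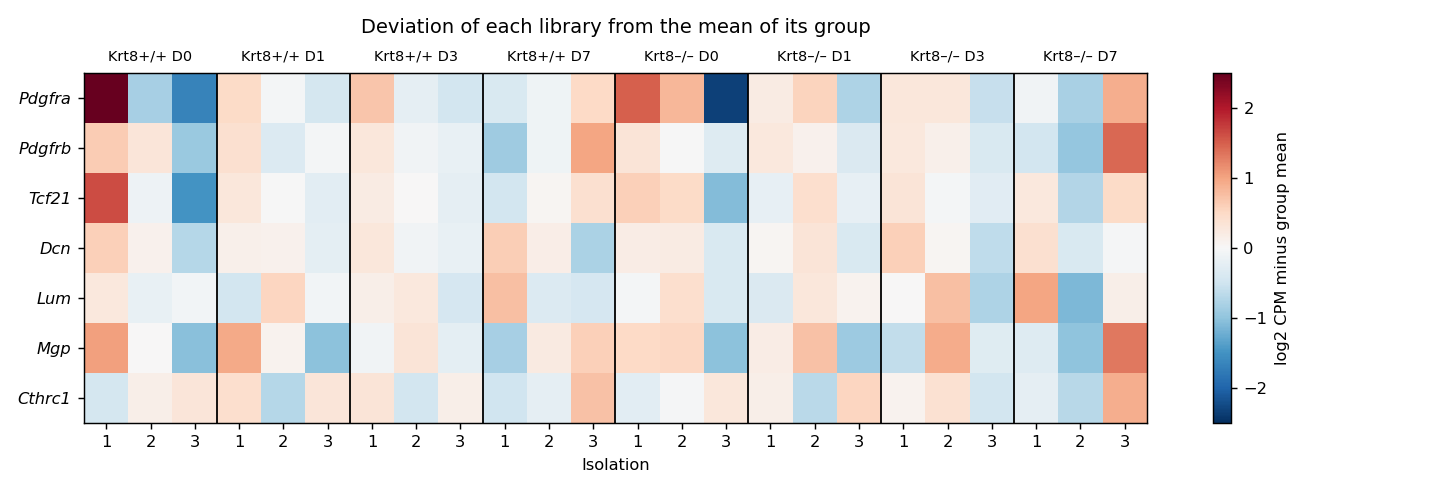
Difference of the log2 CPM of each library from the mean of its group (color) for the 7 genes (rows) in 24 libraries (columns), ordered by genotype, day, and isolation. Pdgfra spreads from −2.33 to 2.49 at D0, and isolation 3 turns from below its group mean at D0 to above it at D7 for Pdgfra, Pdgfrb, Tcf21, and Mgp.

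Over the 24 libraries, the deviations of the 7 genes from their group means correlated with Pearson's r of −0.34 to 0.92 over the 21 pairs, and 9 pairs were above 0.5. These correlations are descriptions, since the libraries share isolations, scaling, and cells. Pdgfra and Tcf21 were the closest pair (r = 0.92), followed by Pdgfrb and Mgp (r = 0.77) and Pdgfra and Mgp (r = 0.75). Dcn and Cthrc1 were the farthest (r = −0.34). Among 15306 genes with a mean of at least 1 CPM, the genes most like Pdgfra were Stambpl1 (r = 0.97), Bmper, Dpysl3, Axl, and Cdh11, a cadherin of mesenchymal cells (r = 0.94). Those most like Pdgfrb were Sulf1 (r = 0.95), Ddr2, a collagen receptor, Aebp1, Emilin2, and Atoh8 (r = 0.91). Those most like Tcf21 were Stambpl1 (r = 0.95), Gas7, Pdgfra, Dpysl3, and Id3, and those most like Mgp were Cdc27 (r = 0.89), Man2a1, Sh3kbp1, Gpr153, and Vim, which encodes the mesenchymal filament protein vimentin (r = 0.88). Those most like Cthrc1 were Btg3 (r = 0.91), Bambi, Vasn, Sar1a, and Hmox1, and those most like Lum were Cit (r = 0.75), Lsm2, Cebpa, Hhip, and Nop9.

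Dcn differed in its neighbours. The 5 genes most like it were C5ar1 (r = 0.92), Cd300c2, Mrc1, Hvcn1, and Cd84 (r = 0.90), and of these C5ar1, Mrc1, and Cd84 encode receptors of macrophages and other leukocytes. The 11 macrophage genes checked summed to 17.6 to 154.7 CPM at D0, 55.9 to 464 CPM at D1, 34.0 to 250.1 CPM at D3, and 9.68 to 251 CPM at D7 in Krt8+/+ libraries, and isolation 3 was the lowest at each day. In Krt8–/– libraries they summed to 12.6 to 90.1, 47.0 to 274, 26.8 to 176, and 10.4 to 132 CPM, with isolation 3 again the lowest. Mrc1 is among them. None of the 10 tested macrophage genes passed the edgeR test from D0 to D7 in either genotype, with 1 at an unadjusted p of 0.05 in each. Of all 18046 tested genes, 11348 in Krt8+/+ and 11242 in Krt8–/– AECs were at that unadjusted p. From D0 to D1, when Dcn fell, Cd68 rose in Krt8+/+ and Marco in Krt8–/– AECs. The part of macrophage RNA in the level of Dcn was not tested.

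For the markers of fibroblast subtypes, pericytes, and smooth muscle cells, the shares of all tested genes from D0 to D7 were 28.6% higher in each genotype and 30.2% lower in Krt8+/+ and 29.9% lower in Krt8–/– AECs. Of the 10 genes of adventitial fibroblasts, which surround vessels and airways, 8 fell and 2 rose from D0 to D7 in each genotype, and the median log2 change was −3.16 in Krt8+/+ and −3.06 in Krt8–/– AECs. Fbln1, a matrix glycoprotein of these cells, went from 26.5 ± 11 to 5.38 ± 1.61 CPM in Krt8+/+ AECs (log2 change −2.30, SE 0.38, adjusted p = 3.1e-05 from edgeR), and Clec3b was at 0 in every D7 library. The 2 that rose were Serpinf1, from 18.9 ± 4.25 to 112 ± 98.5 CPM, and Mfap5, from 8.91 ± 5.06 to 28.6 ± 12.6 CPM. C3, which alveolar epithelium also makes, held most of the list's sum at D0 with 499.5 ± 214 CPM and fell to 5.73 ± 5.80 CPM. Without C3, the list summed to 99.1 CPM at D0 and 149 CPM at D7 in Krt8+/+ AECs, and to 112 and 147 CPM in Krt8–/– AECs. Of 10 alveolar fibroblast genes, 7 fell in Krt8+/+ and 5 in Krt8–/– AECs, and Fgf10, a growth factor of lipid-bearing fibroblasts, rose in each. In that list, Ces1d held 1577 of the 2103 CPM at D0, and Inmt went from 64.2 ± 69.3 CPM at D0 to 0 counts in the D7 libraries of both genotypes. Without Ces1d, the list summed to 526 CPM at D0 and 216 CPM at D7 in Krt8+/+ AECs, and to 465 and 200 CPM in Krt8–/– AECs. At D1 in Krt8+/+ AECs, the whole list summed to 761, 178, and 480 CPM, and the AEC2 genes to 88902, 15227, and 69398 CPM. Which cells made these transcripts was not tested.

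The pericyte genes were split. Of 10, only 6 had enough counts to be tested, and Rgs5, Cox4i2, Higd1b, and Ndufa4l2 did not. Higd1b was at 0 in every D7 library. Cspg4, which encodes the NG2 proteoglycan of pericytes and other mesenchymal cells, rose from 0.886 ± 0.625 CPM at D0 to 41.0 ± 23.0 CPM at D7 in Krt8+/+ AECs (log2 change 5.42, SE 0.87, adjusted p = 2.0e-05 from edgeR) and from 0.729 ± 1.18 to 69.2 ± 64.3 CPM in Krt8–/– AECs (6.45, SE 0.90, adjusted p = 3.7e-06). Trpc6, a cation channel gene, rose too. Gucy1a1, a subunit of the nitric oxide receptor, fell from 11.3 ± 6.40 to 0.712 ± 0.461 CPM, and Abcc9, a potassium channel subunit gene of pericytes, was at 0 in the Krt8+/+ libraries of D7. Without Cspg4, the list summed to 17.8 CPM at D0 and 11 CPM at D7 in Krt8+/+ AECs, and to 15.3 and 9.27 CPM in Krt8–/– AECs, while Pdgfrb rose.

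Smooth muscle genes rose. All 8 rose from D0 to D7 in each genotype, with a median log2 change of 4.52 in Krt8+/+ and 4.90 in Krt8–/– AECs. Acta2, which encodes the α-smooth muscle actin of smooth muscle cells and myofibroblasts, was at 14.0 ± 9.25 CPM at D0, 15.3 ± 0.715 at D1, 421 ± 93.6 at D3, and 1678 ± 607 at D7 in Krt8+/+ AECs (D0 to D7, log2 change 6.88, SE 0.55, adjusted p = 2.0e-09 from edgeR). Tagln went from 5.98 ± 3.92 to 1300.4 ± 296 CPM and Cnn1 from 1.01 ± 0.250 to 380 ± 123 CPM. Myh11, the myosin of mature smooth muscle, went from 5.51 ± 5.42 to 61.0 ± 27.6 CPM (3.40, SE 0.78, adjusted p = 8.6e-04). From D1 to D3, the step at which Pdgfrb rose, 6 of the 8 rose in Krt8+/+ and 7 in Krt8–/– AECs, beside 14.4% and 13.4% of all tested genes. From D3 to D7, 6 of the 8 rose in each genotype, beside 3.11% in Krt8+/+ and 4.4% in Krt8–/– AECs.

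**Figure D4:**
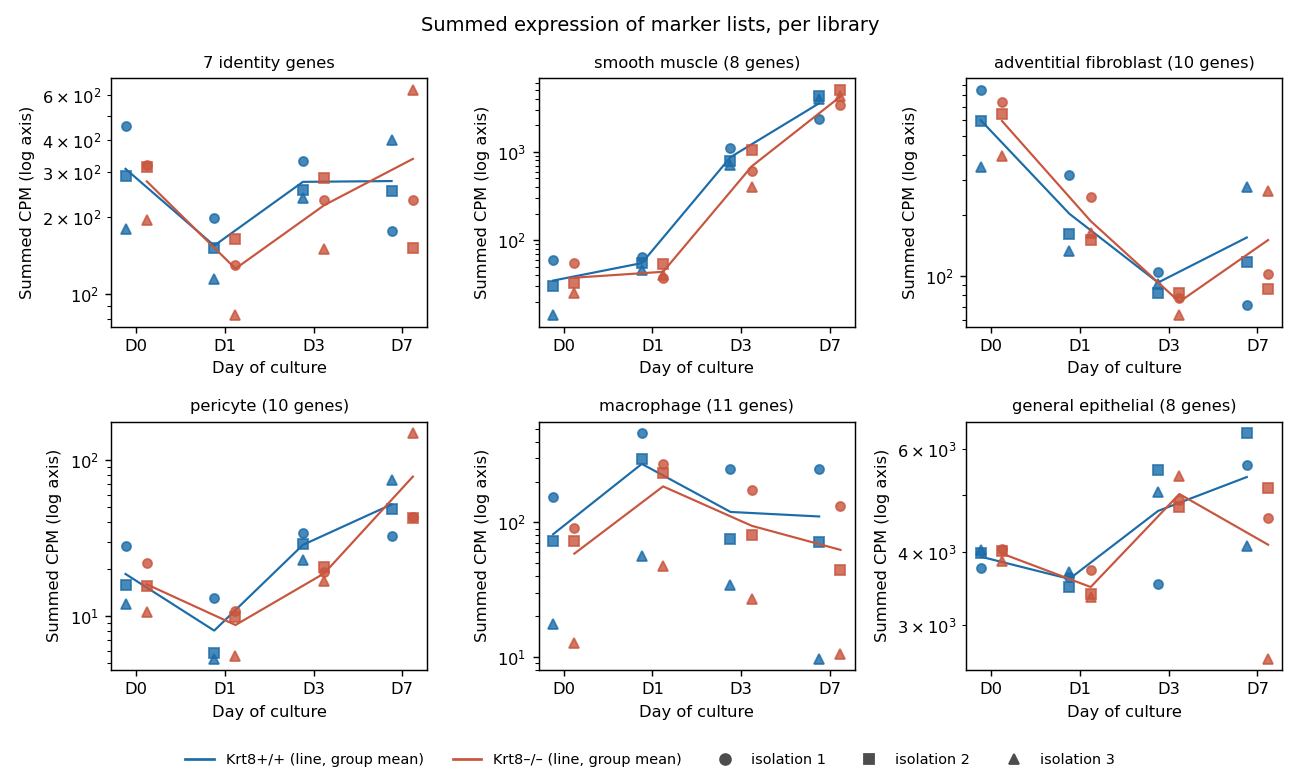
Summed CPM (y axis, log scale) of 6 gene lists by day of culture (x axis) in Krt8+/+ (blue) and Krt8–/– AECs (red), with a symbol for each isolation and a line through the group means. The smooth muscle sum rises from 34.8 to 3563 CPM in Krt8+/+ AECs, the adventitial sum goes from 599 CPM at D0 to 92.3 CPM at D3 and 155 CPM at D7, and the macrophage sum is lowest in isolation 3 on each day.

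Other cell types that could accompany the isolated cells were checked by their markers, for which the same shares of all tested genes apply, 28.6% higher in each genotype and 30.2% and 29.9% lower. Mesothelial genes were split, with 1 of 7 higher at D7 in each genotype and 4 lower in Krt8+/+ and 3 lower in Krt8–/– AECs. Msln, which encodes mesothelin, went from 34.8 ± 23.1 CPM at D0 to 1462 ± 446 CPM at D7 in Krt8+/+ AECs, whereas Upk3b went from 61.6 ± 29.7 to 1.40 ± 0.694 CPM and Lrrn4 from 29.0 ± 15.6 to 5.02 ± 2.09 CPM. Of 6 tested endothelial genes, 5 fell and 1 rose in each genotype, and Cldn5 was at 0 in every D7 library. Esam held most of that sum at D0, at 210.3 ± 12.9 CPM, and which cells made it was not tested. Lymphocyte genes summed to at most 14.6 CPM at D0 and at most 0.408 CPM at D7, and 3 of 5 tested fell in Krt8+/+ and 2 in Krt8–/– AECs. All 6 club and ciliated cell genes and all 8 AEC2 genes fell in each genotype. Of 8 AEC1 genes, 6 rose and 1 fell in Krt8+/+ and 5 rose and 2 fell in Krt8–/– AECs. Of 8 general epithelial genes, 1 rose and 4 fell in each. The part of any of these cells in the levels of the 7 genes was not tested.

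**Figure D5:**
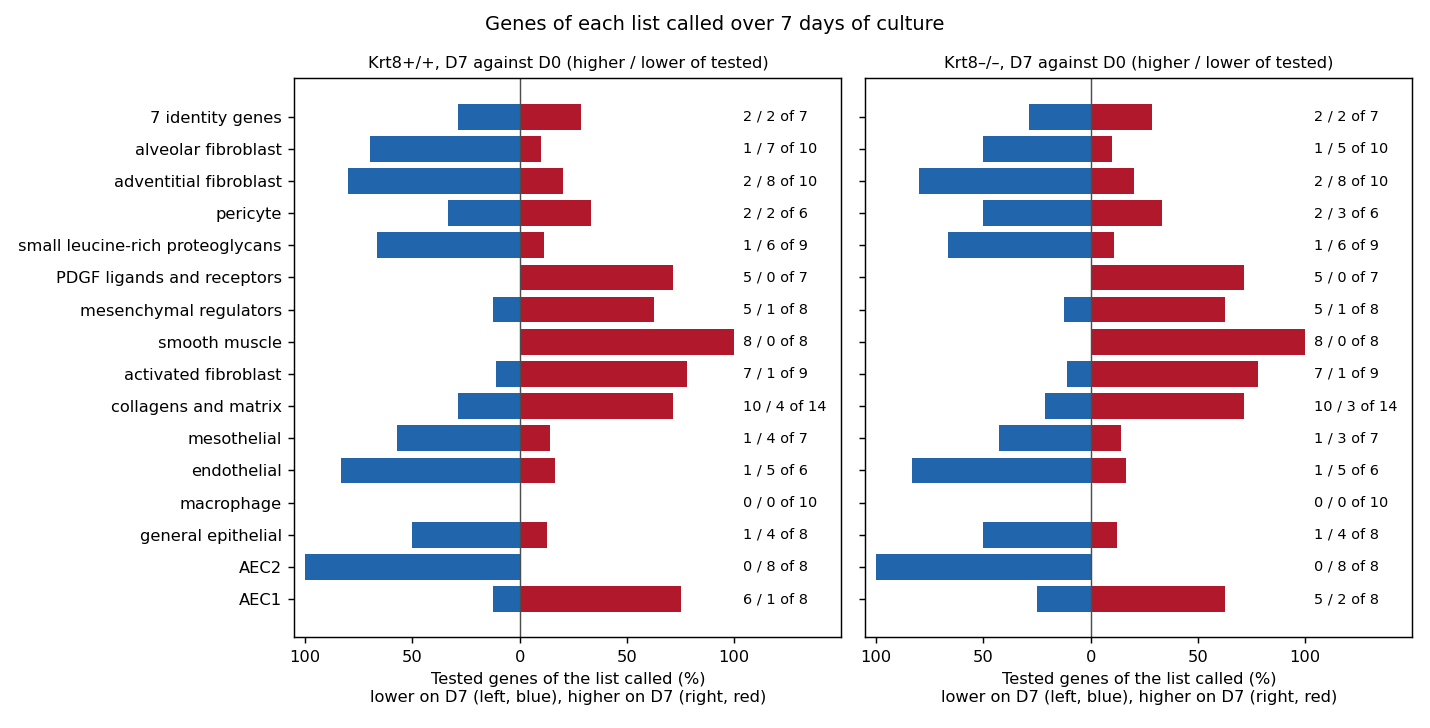
Share of the tested genes of each list (rows) that were higher (red, to the right) or lower (blue, to the left) at D7 than at D0 in Krt8+/+ (left panel) and Krt8–/– AECs (right panel), in percent, with the counts as higher / lower of tested. The 7 identity genes have 2 higher and 2 lower, all 8 smooth muscle genes are higher, and all 8 AEC2 genes are lower.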

How the data were processed

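Counts of reads per mouse gene, not normalized, were deposited by the authors in 1 table for the 24 libraries. The submitters' processing notes name cutadapt 2.3, STAR 2.7.8a, RSEM 1.3.3, and GRCm38, with no role given. Whether the whole-number counts are rounded estimates and whether counting used strand are unstated in the sources read here. The 5 reporter rows of the 55426 were left out. Symbols and positions are from GENCODE M21 (GRCm38), which named 55154 of 55421 identifiers. The authors' paper was not used for values.

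Analyses were run in R 4.3.3. Low genes were removed by edgeR's filterByExpr at min.count 10 and min.total.count 15, and counts were scaled with TMM factors, which were 0.746 to 0.808 at D0 and 0.999 to 1.2 in culture. 1 edgeR 4.0.16 quasi-likelihood model of 8 groups (16 residual degrees of freedom) was fitted, with Benjamini-Hochberg adjustment over 18046 genes and a threshold of 0.05. SEs are from the F statistic. P values rest on the spread between the 3 libraries within a group, pooled over the 8 groups. They leave out the pairing by isolation except in the fit with isolation as a block. Alternatives were the DESeq2 1.42.0 test and size factors, no filter, only the groups compared, isolation as a block, and each isolation left out. Leaving out the isolation 3 library of Krt8–/– D7 was chosen after its values were seen. The procedure was run on simulated counts with few changed genes and no isolation effect, so that run does not cover the pairing of these libraries.

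Isolation dates in the labels pair the libraries. The correlation of deviations between paired libraries across genes was 0.0573 to 0.548 between genotypes and −0.0345 to 0.383 between days.

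The 7 genes and all lists were chosen with earlier results of these data known. The plan was to name the 4 tested genes of each list with the highest mean CPM, but only some of them are named here. Chil3 of the macrophage list and Scgb1a1 of the club and ciliated cell list, the highest of their lists, are not named above. For each of the 7 genes, the 5 most correlated over 24 libraries were named (log2 CPM, prior count 2, mean of at least 1 CPM). Other genes were named after their values were seen.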

Additional observations from a re-analysis of the deposited data

How the results depend on the processing

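Over the alternatives run, 456 of 504 log2 changes of the 7 genes between days kept their direction and their side of the threshold, 13 lost and 18 gained a call, and 17 turned direction without a call. Of 315 genotype differences, 30 turned direction, none past the threshold. The cause was not tested for any of these. With isolation as a block, which the isolation dates pair, 1 gene (Pdgfra) rose from D0 to D1 in Krt8+/+ AECs in place of 0, 0 rose from D3 to D7 in Krt8–/– AECs in place of 1, Mgp rose from D0 to D7 in Krt8–/– AECs, and no other call of the 7 genes changed. The Pdgfrb genotype difference with the block was −0.0064 at D0 and 0.00037 at D1. Without the filter, 1 gene (Pdgfra) rose from D0 to D1 in Krt8+/+ AECs and 2 (Dcn and Lum) fell from D3 to D7 in Krt8–/– AECs, and Mgp passed from D1 to D3 in each genotype and from D0 to D7 in Krt8–/– AECs. With the DESeq2 test, 2 fell from D3 to D7 in each genotype, the added gene being Lum. In the fit of only the groups compared, 0 rose from D3 to D7 in Krt8–/– AECs and 2879 genes of all were called from D1 to D3 in Krt8+/+ AECs, in place of 4740. Dcn changed by −0.00501 and −0.00504 from D1 to D3 in Krt8+/+ AECs with the size factors of DESeq2 and with its test. Between genotypes, DESeq2 called 9, 5, and 8 of all genes at D0, D1, and D3 and 4 for the change, and the fit without the filter called 10 at D0, 6 at D1, and 3 for the change.

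With each isolation left out in turn, or the isolation 3 library of Krt8–/– D7 alone, the genes that rose numbered 0 to 1 from D0 to D1 in each genotype, 2 to 4 from D0 to D7 in Krt8+/+ AECs, and, in Krt8–/– AECs, 0 in each case from D3 to D7 and 1 to 3 from D0 to D7. Those that fell numbered 0 to 1 from D3 to D7 in each genotype and 1 to 2 from D0 to D7 in Krt8+/+ AECs. In Krt8–/– AECs, 2 to 3 rose from D1 to D3 and 2 to 3 fell from D0 to D7. Of all genes, 2614 to 4813 were called from D1 to D3 and 325 to 1237 from D3 to D7 in Krt8+/+ AECs, and 1842 to 4332 and 834 to 1364 in Krt8–/– AECs. Between genotypes 2 to 5 were called at D0, D1, and D7, 3 to 5 at D3, and 0 to 2 for the change. Log2 values that turned direction are given as ranges over these fits. From D0 to D1 in Krt8+/+ AECs they were Pdgfrb −0.24 to 0.38 and Tcf21 −0.17 to 1.48. From D1 to D3 in Krt8+/+ AECs they were Dcn −0.0466 to 0.14. From D3 to D7 in Krt8+/+ AECs they were Pdgfrb −0.42 to 0.81 and Tcf21 −0.54 to 0.21. From D0 to D7 in Krt8+/+ AECs they were Pdgfra −0.25 to 3.22 and Tcf21 −1.32 to 1.14. From D0 to D1 in Krt8–/– AECs they were Tcf21 −0.48 to 0.23. From D1 to D3 in Krt8–/– AECs they were Dcn −0.27 to 0.25. From D3 to D7 in Krt8–/– AECs they were Pdgfra −1.08 to 0.19, Tcf21 −0.40 to 0.33, Mgp −0.0603 to 2.10 and Cthrc1 −0.00324 to 1.28. From D0 to D7 in Krt8–/– AECs they were Pdgfra −0.19 to 1.80. Between genotypes at D0 they were Pdgfra −0.87 to 1.40, Pdgfrb −0.16 to 0.20, Tcf21 −0.34 to 1.26, Mgp −0.0553 to 0.75 and Cthrc1 −0.14 to 0.000760. Between genotypes at D1 they were Pdgfrb −0.25 to 0.0938, Tcf21 −0.56 to 0.0179, Lum −0.13 to 0.17 and Mgp −0.61 to 0.45. Between genotypes at D3 they were Mgp −0.48 to 0.21. Between genotypes at D7 they were Pdgfra −0.54 to 0.27, Pdgfrb −0.39 to 0.94, Mgp −0.44 to 0.96 and Cthrc1 −0.72 to 0.0201. Between genotypes for the change from D0 to D7 they were Pdgfra −1.42 to 1.14, Pdgfrb −0.41 to 0.84, Tcf21 −2.04 to 0.22, Dcn −0.45 to 0.00703, Mgp −0.72 to 1.01 and Cthrc1 −0.66 to 0.0194.

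Counting depth limits Lum and Tcf21, with 0 to 90 and 6 to 152 reads per library. It also limits the low starting levels of Pdgfrb, with 15 to 92 reads at D0 and 38 to 77 at D1, and Cthrc1 at D1. TMM factors differed between D0 and culture, and without them the ratio of means turned side for Tcf21 alone, in Krt8–/– AECs from D0 to D1 (0.868 scaled and 1.24 unscaled) and from D3 to D7 (1.03 and 0.945). With 3 isolations per group, a difference that missed the threshold is not shown to be absent.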
